A study of Mus musculus with 4 samples.

Results

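Trem2, Tyrobp, Hcst, Lat2, Syk and Rasa4 are 6 of the 7280 genes with counts in mouse alveolar macrophages. These cells are the phagocytes that live in the air spaces of the lung. The 6 genes were picked by gene symbol after results of the same contrast had been seen. Their own differences between the groups are therefore given as a description, and no p-value is given for them. RNA was profiled by serial analysis of gene expression (SAGE), which counts a short sequence tag next to an NlaIII cutting site (CATG) instead of whole transcripts. The day 21 metastasis group was 2 libraries of alveolar macrophages of wild-type BALB/c mice that carried lung metastases 21 days after an intravenous injection of BNL, a hepatocellular carcinoma line of the mouse. The untreated group was 2 libraries of the same cell type from wild-type BALB/c mice with no injection and no metastasis, so injection and metastasis cannot be told apart. The labels do not tie a library to a mouse or a pool, so the spread within a group may be technical.

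As background, TREM2 is a surface receptor of macrophages that binds lipids, lipoproteins and debris of dying cells and has no signalling tail of its own. It pairs in the membrane with DAP12, the product of Tyrobp, whose tail carries an immunoreceptor tyrosine-based activation motif (ITAM). Once phosphorylated by kinases of the Src family, that motif recruits the kinase SYK, while the related chain DAP10, the product of Hcst, recruits phosphoinositide 3-kinase. LAT2 (also called NTAL or LAB) is a membrane scaffold phosphorylated downstream of SYK, and RASA4 (CAPRI) is a calcium-triggered protein that switches Ras off.

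The 6 genes have 24 tags in the deposited tables, of which 23 were counted at least once. Each of the 24 matched transcripts of its own gene and of no other gene on the sense strand (GENCODE M21, GRCm38). The most counted tags are shown because they are what was measured for each gene. Each is read 5′ to 3′ on the transcript, with the NlaIII site in capitals.
Trem2, exon 2: CATGccagcgtgtggtgagcacaca
Trem2, exon 5: CATGctctcccctcctccaccaaga
Trem2, exon 1: CATGggacctctccaccagtttctc
Tyrobp, exon 1: CATGggggctctggagccctcctgg
Hcst, exon 4: CATGcctggcagaggctgaccacgg
Lat2, exon 2: CATGagtgccgagctggagctgctg
Syk, exon 14, upstream site: CATGtacagatgggagcatctcacc
Syk, exon 13: CATGctggagaaaggagagcggatg
Syk, exon 14, last site: CATGtcctccctgtaccccgggcct
Rasa4, exon 14: CATGcagatgcccgcaccagccgca
Rasa4, exon 5: CATGccagccggctgcgctgcgcgg

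On GRCm38 the most counted Trem2 tag lay at chr17:48348592-48348616 on the plus strand, in the coding sequence, and the tag at the last NlaIII site of the transcript lay in the 3' UTR at chr17:48352085-48352109. The CATG of the exon 1 tag of Trem2 (chr17:48346555-48346579), of the Tyrobp tag (chr7:30413838-30413862, plus strand) and of the exon 2 tag of Lat2 (chr5:134608881-134608905, minus strand) each contains the start codon. The annotated Tyrobp transcript holds 1 NlaIII site, so the gene could be counted at its 5' end alone, 514 bases from the end of the transcript. The Hcst tag (chr7:30417800-30417824, minus strand) spans the end of the coding sequence. Tyrobp and Hcst are neighbours that run towards each other, with 126 bases between their annotated ends, and since a tag carries the strand of its transcript their counts were kept apart. The most counted Syk tag lay in the 3' UTR at chr13:52647299-52647323, and the tag at the last site lay at chr13:52648591-52648615, with the exon 13 tag at chr13:52643066-52643090 in the coding sequence, all on the plus strand. The exon 14 tag of Rasa4 (chr5:136102621-136102645, plus strand) lies in the coding sequence and matches the opposite strand of the annotated gene Gm15701 as well, and the exon 5 tag lies at chr5:136093230-136093254.

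The libraries held 1783814 and 1630776 counts in the day 21 metastasis group and 1962569 and 2198563 counts in the untreated group. A count of 1 does not occur in the tables, so a tag listed at 0 may have been read once. Levels are given as CPM, counts per 1000000 of a library scaled with TMM factors, and in a bulk library fewer cells that express a gene and less RNA per cell cannot be told apart. Markers of alveolar macrophages were present, with counts for 15 of 15 (14 in the day 21 metastasis group), although Marco had 2 counts in 1 untreated library and none elsewhere. Their summed level was 1719 and 3885 CPM in the day 21 metastasis libraries and 1259 and 3063 CPM in the untreated ones, and most of it on day 21 was the chitinase-like gene Chil3 (1047 and 2777 CPM on day 21, against 329 and 1194 CPM in untreated mice). Without Chil3 the sum was 672 and 1108 CPM on day 21, against 930 and 1869 CPM in untreated mice, which overlapped. Of the 15 markers 5 were lower in both day 21 libraries than in both untreated ones and 0 were higher. Of all 2993 tested genes, 16.0% were lower in this way and 15.2% higher. Among the 5 markers Krt79, a keratin, stood at 90.7 and 20.7 CPM on day 21, against 329 and 210.2 CPM in untreated mice. Mrc1, another of the 5, was separated by a small margin, at 6.85 and 7.13 CPM on day 21, against 8.34 and 15.5 CPM in untreated mice. Few markers of other cell types could be read. Listed at 0 in every library were 4 of 12 natural killer cell, 2 of 11 T cell, 4 of 9 dendritic cell and 3 of 10 mast cell and basophil markers, and the others of these lists were not analysed here. Of 10 B cell markers 4 were listed and of 10 hepatocyte and hepatoma markers 2, and Cd22 and Afp, the 2 of these with counts, were at 1.23 CPM in untreated replicate 2. Lung epithelial markers had counts for 2 of 7 listed and summed to 19.4 and 4.99 CPM on day 21 and 53.5 and 29.0 CPM in the untreated group, with Sftpa1, a surfactant gene, at 0. Nearly all of this was Epcam, and without it the sum was 0 in every library but untreated replicate 2, at 2.04 CPM.

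Trem2 stood at 59 and 193 counts in the day 21 metastasis libraries, against 10 and 26 counts in the untreated libraries. In CPM these were 33.7 and 138 on day 21, against 4.91 and 10.6 in untreated mice. The groups did not overlap, but the day 21 libraries differed 4.08-fold from each other, the widest gap between replicates of the 6 genes where a ratio could be formed. The log2 change was 3.44 ± 0.80 (SE, n = 2 per group), a fitted fold of 10.8. It was 2.13 without day 21 metastasis replicate 2, 4.19 without day 21 metastasis replicate 1 and 4.13 without untreated replicate 2.

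The Trem2 counts were spread over 3 tags. The exon 2 tag had 44 and 146 counts on day 21 against 7 and 12 in untreated mice, and the tag at the last site had 10 and 25 counts on day 21 against 3 and 6 in untreated mice. In CPM the groups did not overlap for either of these tags, while the exon 1 tag, with 5 and 22 counts on day 21 against 0 and 8 in untreated mice, overlapped. The exon 2 tag made up 74.6% and 75.6% of the Trem2 counts in the day 21 metastasis libraries. In the untreated libraries it made up 70.0% and 46.2%. The exact 95% intervals were 61.6% to 85.0% and 69.0% to 81.5% on day 21, and 34.8% to 93.3% and 26.6% to 66.6% in untreated mice, and they cover counting error only. With 10 and 26 counts the untreated shares were too imprecise to show a shift between sites, and no test was run, since an exact permutation test of 2 against 2 libraries cannot go below p = 0.333. The last site, which SAGE is designed to capture, held 16.9% and 13% of the counts on day 21, against 30.0% and 23.1% in untreated mice. Over all genes, tags at the last site of at least 1 transcript of their gene held far more. Their share of all counts was 84.1% and 77.4% on day 21 and 78.1% and 72.3% in untreated mice.

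**Figure D1:**
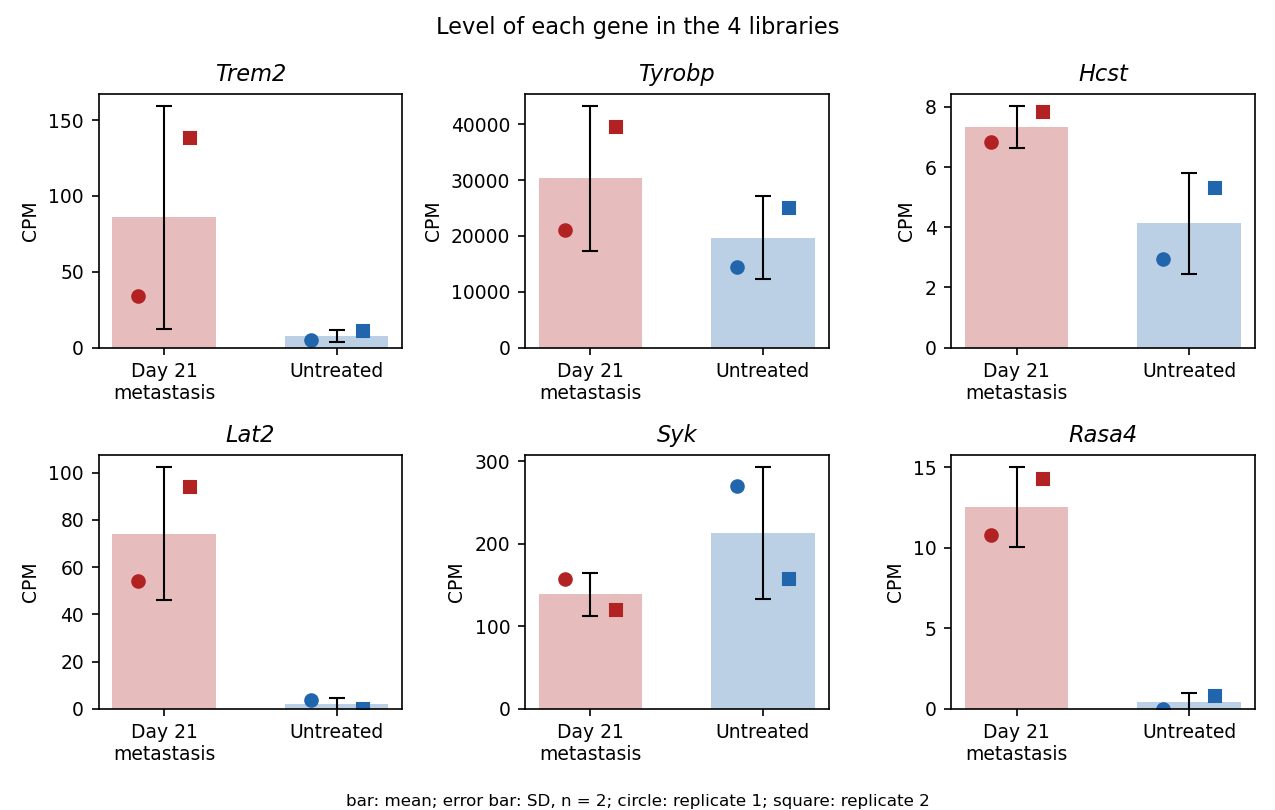
Level of each gene in CPM on the vertical axis for day 21 metastasis and untreated libraries (bar, mean; error bar, SD, n = 2, drawn down to 0 at most; circle, replicate 1; square, replicate 2). Trem2, Lat2 and Rasa4 are high in both day 21 libraries, Tyrobp overlaps between the groups, and the lower Syk library of the untreated group reaches the level of the higher day 21 library.

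Markers of monocyte-derived and interstitial macrophages moved in the same direction as Trem2. Of 15 such markers 11 had counts, with a summed level of 2182 and 3216 CPM in the day 21 metastasis libraries and 58.4 and 123 CPM in the untreated ones. Of the 8 tested, 5 passed as higher in edgeR's quasi-likelihood test, as did 0.668% of all tested genes, and none as lower. C1qb, C1qc and Pf4 passed the filter on low counts through the day 21 libraries alone, so they could hardly come out lower. The list was also chosen with earlier results known, so nothing is read from the count of markers that passed. Without untreated replicate 1 the log2 change of Apoe, 1 of these markers, was 4.83, against 5.37 with all libraries. Apoe made up most of the sum on day 21 (1733 and 2716 CPM). Without Apoe the sum was 449 and 501 CPM on day 21, against 29.9 and 45.0 CPM in untreated mice. Folr2, Lyve1 and Tmem119 were listed at 0 in every library. C1qb, a chain of the complement starter C1q, had 75 and 96 counts on day 21 and none in untreated mice. Ccr2, a receptor of recruited monocytes, had 2 and 2 counts on day 21 and none in untreated mice. Neutrophil markers, which had counts for 5 of 7 listed with Mpo and Cxcr2 at 0, summed to 74.2 and 278 CPM on day 21 and 10.3 and 157 CPM in untreated mice. Camp made up most of that sum in every library. Without Camp it was 5.14 and 27.1 CPM on day 21, against 0.982 and 16.4 CPM in untreated mice. Whether such macrophages or neutrophils had a part in the values of the 6 genes was not tested.

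Tyrobp, the partner chain of Trem2, was one of the most counted genes in every library. Its single tag had 36923 and 55474 counts in the day 21 metastasis libraries, against 29439 and 60930 counts in the untreated libraries. This was 2.07% and 3.40% of all counts on day 21, against 1.5% and 2.77% in untreated mice. By tag count Tyrobp ranked 5th and 4th among all genes on day 21 and 10th and 4th in untreated mice. In CPM it stood at 30300.5 ± 13049.6 on day 21 and 19681 ± 7401 in untreated mice (n = 2 per group, mean ± SD). Replicate 2 was the higher library in both groups, and the groups overlapped. The log2 change was 0.62 ± 0.47 (SE), smaller than the gap between the replicates of either group. It was 0.35 with total counts in place of TMM factors, a scaling under which the median of all tested genes was -0.29 instead of -0.07, and 0.13 without day 21 metastasis replicate 2.

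Since both counts come from the same library, the ratio of Trem2 to Tyrobp does not depend on scaling. For every 1000 Tyrobp counts there were 1.6 and 3.48 Trem2 counts in the day 21 metastasis libraries, against 0.340 and 0.427 in the untreated libraries. The ratios did not overlap, as for Trem2 itself. These are ratios of tag counts, which depend on how well each tag was captured and amplified, and they do not give numbers of molecules.

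Hcst, the neighbour of Tyrobp that encodes DAP10, was close to the detection limit. It had 12 and 11 counts in the day 21 metastasis libraries, against 6 and 13 counts in the untreated libraries. In CPM the day 21 libraries were at 6.85 and 7.84, above the untreated ones at 2.94 and 5.32. The log2 change of 0.81 ± 0.88 (SE) was smaller than its error, and the ratio of summed counts, 1.72 with an exact 95% counting interval of 0.896 to 3.34, allowed both directions. For every 1000 Tyrobp counts there were 0.325 and 0.198 Hcst counts on day 21, against 0.204 and 0.213 in untreated mice, which overlapped.

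Lat2, the scaffold phosphorylated downstream of SYK, was at 95 and 132 counts in the day 21 metastasis libraries, against 8 and 0 counts in the untreated libraries. The CPM were 54.2 and 94.1 on day 21, against 3.93 and 0 in untreated mice. Both day 21 libraries stood far above both untreated ones, and the day 21 libraries differed 1.73-fold. The log2 change was 5.26 ± 0.99 (SE), a fitted fold of 38.2, and 4.24 without untreated replicate 2. Without untreated replicate 1 the remaining untreated library is at 0, where the 2 listed tags allow a mean of up to 5.69 counts (at which both would be read 0 or 1 times with a probability of 5%). Against that library Lat2 was at least 31.9-fold higher on day 21. That bound takes the mean day 21 level without its own error.

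The tag that starts at the Lat2 start codon held 95 of 95 and 130 of 132 counts on day 21 and 8 of 8 counts in untreated replicate 1. It lies at the last but one site of the transcript used for positions and is present in 4 of 5 coding transcripts of the gene. The other listed tag, in the 5' UTR, had 2 counts in 1 day 21 library.

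Syk was the one gene of the 6 with a lower mean on day 21. It is deposited under the symbol Sykb and was found through its RefSeq accession. The day 21 metastasis libraries held 275 and 169 counts and the untreated libraries 550 and 385 counts. In CPM these were 157 and 120.4 on day 21, against 269.9 and 157 in untreated mice. The mean levels were 139 ± 25.8 on day 21 and 214 ± 79.5 in untreated mice (n = 2 per group, mean ± SD). Day 21 replicate 1 and untreated replicate 2 both came to 157 CPM, so the groups met. The log2 change of -0.62 ± 0.61 (SE) was about as large as its error. It was -0.18 without untreated replicate 1 and -0.94 without untreated replicate 2.

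Syk had the most tags of the 6 genes, 11 with counts out of 12 listed. The upstream exon 14 tag had 180 and 106 counts on day 21 against 388 and 228 in untreated mice, and it made up 65.5% and 62.7% of the Syk counts on day 21, against 70.5% and 59.2% in untreated mice. It is the 9th of 26 sites counted from the 3' end of the transcript used for positions. The last site of that transcript held 13.8% and 10.1% on day 21, against 10.0% and 17.4% in untreated mice. The exon 13 tag, which all 3 coding transcripts contain and which is the last site of 1 of them, held 15.6% and 17.8% on day 21, against 16% and 10.9% in untreated mice. For each of these 3 tags the shares of the groups overlapped. Tags in the 3' UTR together held 81.8% and 76.3% on day 21, against 84.0% and 84.4% in untreated mice, and the rest lay in the coding sequence.

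**Figure D2:**
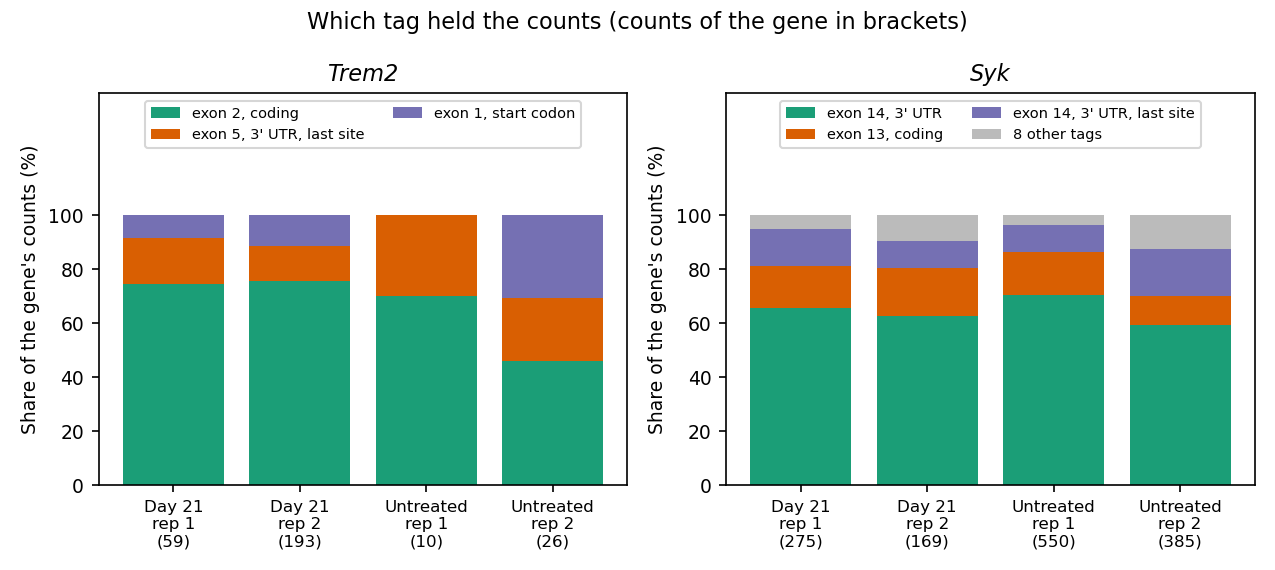
Share of the counts of Trem2 (left) and Syk (right) held by each tag, in percent on the vertical axis, for each library, with the counts of the gene in brackets. The exon 2 tag of Trem2 holds 74.6% and 75.6% on day 21, against 70.0% and 46.2% in untreated mice, and the upstream exon 14 tag of Syk holds between 59.2% and 70.5% in every library.

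Rasa4, which turns Ras off when calcium rises, was low throughout. It had 19 and 20 counts in the day 21 metastasis libraries, against 0 and 2 counts in the untreated libraries. In CPM these were 10.8 and 14.3 on day 21, against 0 and 0.818 in untreated mice, and the groups did not overlap. With 39 counts on day 21 against 2 in untreated mice, the ratio of summed counts was 27.7, and its exact 95% counting interval, in which tags read once are missing, was 7.17 to 237. The log2 change was 4.64 ± 1.12 (SE) and 3.83 without untreated replicate 1. It was 2.42 when each tag listed at 0 was set at 1 count. Without untreated replicate 2 the remaining untreated library is at 0, where the 5 listed tags allow a mean of up to 7.63 counts by the same rule, and against that library Rasa4 was at least 3.35-fold higher on day 21.

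The exon 14 tag held 11 of 19 and 12 of 20 Rasa4 counts on day 21 and both counts in untreated mice. The exon 5 tag had 3 and 6 counts on day 21 and none in untreated mice. The tag at the last site had 3 counts in day 21 replicate 1 and none in the other libraries. At these counts, shares of single tags carried wide intervals, such as 33.5% to 79.7% and 36.1% to 80.9% for the exon 14 tag on day 21.

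Trem2, Lat2 and Rasa4 were among the 20 of 2993 tested genes (0.668%) that passed as higher with edgeR's quasi-likelihood test and a Benjamini-Hochberg adjusted p under 0.05, while 0.0668% passed as lower, none of them among the 6. Both day 21 libraries were above both untreated ones for Trem2, Hcst, Lat2 and Rasa4, as for 15.2% of the tested genes, and Syk was below by a margin that vanishes on rounding, as 16.0% of the tested genes were below. The genes were picked with these values known, so nothing is read from these counts. None of the 3 passed with total counts alone, with the most counted tag only or with tags of 1 gene only. Few genes did so in these settings. Of all tested genes, 9 of 2993, 9 of 2668 and 11 of 2552 passed as higher, in that order. Fits that leave 1 library in a group are read by the size of the change alone. Leaving out untreated replicate 1 gave 3.0 for Trem2 and 3.83 for Rasa4 on the log2 scale, and Lat2 then had no untreated count. Leaving out day 21 metastasis replicate 2 lowered the log2 change of Trem2 to 2.13. Rasa4 did not pass in DESeq2 or with tags at 0 set at 1. Its log2 change came to 4.89 with day 21 metastasis replicate 1 left out and 4.49 with day 21 metastasis replicate 2 left out. All 6 genes passed the filter on low counts, Lat2 and Rasa4 through the day 21 libraries alone.

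**Figure D3:**
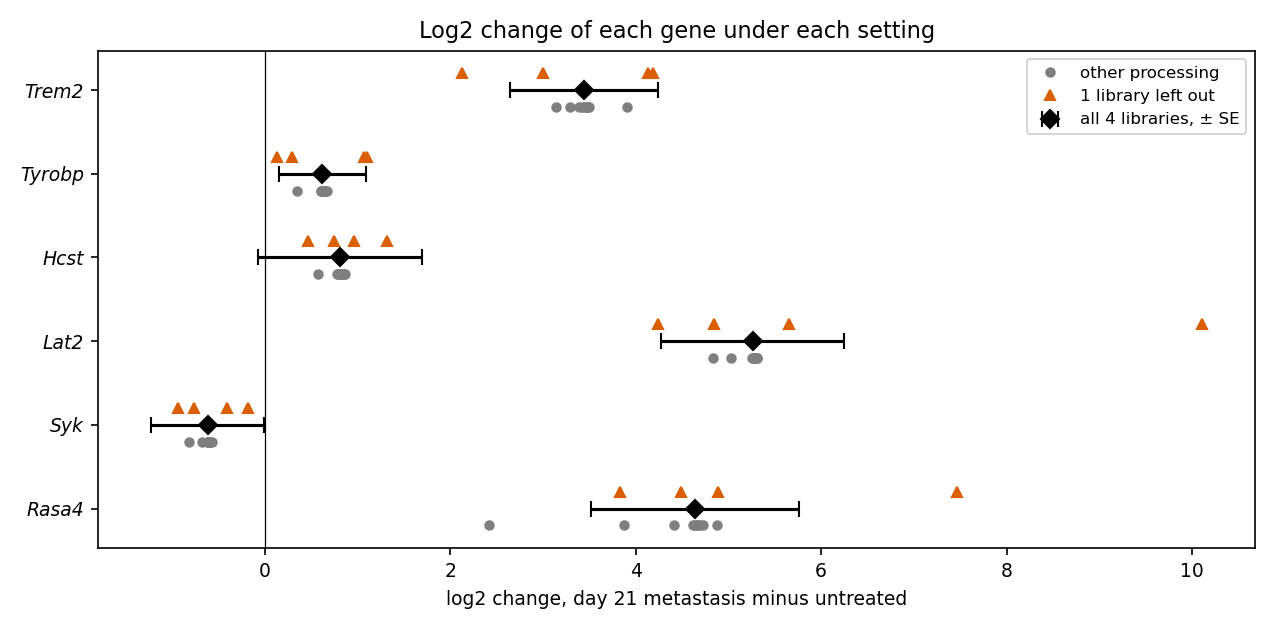
Log2 change of each gene, day 21 metastasis minus untreated, on the horizontal axis (diamond, all 4 libraries with SE; grey circle, another processing choice; orange triangle, 1 library left out). Trem2, Lat2 and Rasa4 stay above 2, while Tyrobp, Hcst and Syk stay between -0.94 and 1.32. The values at 10.11 for Lat2 and 7.46 for Rasa4 come from fits whose untreated side holds no count and are not bounds.

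Genes whose levels over the 4 libraries were most like those of Trem2 were, in order, Hmox1 (haem oxygenase), Pla2g7 (platelet-activating factor acetylhydrolase), Ccl9 (a chemokine), LOC100504934 and Pfkl (a glycolytic enzyme). Likeness was the distance of centred log2 CPM among 2129 genes with a mean of at least 10 CPM, and it was 0.34 for Hmox1, 0.57 for Pla2g7 and 0.59 for Ccl9. Hmox1 had 15 and 55 counts on day 21 against 2 and 8 in untreated mice. Those nearest to Tyrobp were Cyc1, Dad1, Lamtor2, Adam15 and Stxbp2, at distances of 0.09 to 0.16. With 4 libraries such likeness is a description of the same few values.

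Other genes around TREM2, DAP12, SYK and Ras signalling were then taken from 9 lists, 178 genes in all, of which 61 were tested. Receptors that use DAP12 or DAP10 were hardly counted. Of 20 such receptors 12 had counts and 1 was tested, Cd300c2, an activating member of the CD300 family, which was at 18.5 ± 2.03 CPM on day 21, against 29.6 ± 14.2 CPM in untreated mice (n = 2 per group, mean ± SD) and did not pass. Trem1, which amplifies inflammatory responses, had 4 and 0 counts on day 21 against 11 and 8 in untreated mice. Clec5a, a lectin that signals through DAP12, had 9 and 6 counts on day 21 and is listed at 0 in both untreated libraries. No test was made for Trem1 and Clec5a, which fell below the filter. Of 7 other ITAM chains, Cd79a, Cd79b and Cd3d of B and T cell receptors were listed at 0 in every library, and the rest, among them Fcer1g, were not analysed here.

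Of 17 kinases and regulators that act on the ITAM, 4 were tested and none passed in edgeR's quasi-likelihood test. The log2 change was below 0 for all 4, with a median of -1.06, but the median of all tested genes was below 0 as well, at -0.07. None was under an unadjusted p of 0.05 in edgeR, and none passed by adjusted p in DESeq2. Of all 2993 tested genes, at least 106 were higher and 64 lower at that unadjusted threshold in edgeR. Lyn, the most counted Src family kinase here, was at 401 ± 101 CPM on day 21, against 579 ± 55.0 CPM in untreated mice (log2 change -0.53 ± 0.57, SE). Ptprc, the phosphatase CD45 that primes Src kinases, had 12 and 13 counts on day 21 against 27 and 73 in untreated mice (log2 change -1.42 ± 0.77).

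Of 33 other adaptors 6 were tested, with a median log2 change of -0.07. None passed by adjusted p in edgeR's quasi-likelihood test or in DESeq2. At an unadjusted p under 0.05 in edgeR, 1 was higher. That one was Pstpip1, an adaptor of the cytoskeleton and of phosphatases, with 21 and 15 counts on day 21 against 0 and 4 in untreated mice (log2 change 3.61 ± 1.07, adjusted p = 0.161 in edgeR). It passed the filter through the day 21 libraries alone, and without untreated replicate 1 the log2 change was 2.75. Lcp2 (SLP-76), a scaffold that acts beside LAT family proteins, was at 27.7 ± 18.2 CPM on day 21, against 34.4 ± 23.0 CPM in untreated mice. Dok3, an inhibitory adaptor, was at 577 ± 178 CPM on day 21, against 506 ± 9.04 CPM in untreated mice. Gab2, a docking protein for phosphoinositide 3-kinase, was at 3.14 ± 0.406 CPM on day 21, against 9.85 ± 6.30 CPM in untreated mice. Lat, the T cell relative of Lat2, and Blnk, the B cell relative of Lcp2, were not analysed here.

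None of the 11 tested of 26 effector enzymes passed by adjusted p in edgeR's quasi-likelihood test or in DESeq2. None was under an unadjusted p of 0.05 in edgeR, and their median log2 change was -0.37. Rac1, a small GTPase of the actin cytoskeleton, was at 932 ± 33.2 CPM on day 21, against 917 ± 147 CPM in untreated mice. Pik3r5, a regulatory subunit of phosphoinositide 3-kinase gamma, was at 79.8 ± 3.06 CPM on day 21, against 39.2 ± 13.2 CPM in untreated mice. Akt2, a kinase below phosphoinositide 3-kinase, was at 117 ± 38.1 CPM on day 21, against 216 ± 141 CPM in untreated mice. Mapk3, the kinase ERK1, was at 39.9 ± 37.2 CPM on day 21, against 79.7 ± 17.8 CPM in untreated mice. Plcg2, the phospholipase that TREM2 signalling uses, had 0 and 7 counts on day 21 against 5 and 5 in untreated mice. Btk, a Tec family kinase from the list before, had 2 and 0 counts on day 21 against 0 and 2 in untreated mice, and both genes were below the filter.

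None of the 12 tested of 21 phosphatases and inhibitory receptors passed by adjusted p in edgeR or in DESeq2, and their median log2 change was 0.33. At an unadjusted p under 0.05 in edgeR, 2 were higher. Those 2 were Cd300a and Cd300lf, receptors of the CD300 family with inhibitory motifs. Cd300a was at 45.8 ± 22.8 CPM on day 21, against 10.9 ± 3.64 CPM in untreated mice (adjusted p = 0.443 in edgeR), and Cd300lf was at 88.3 ± 87.7 CPM on day 21, against 25.7 ± 16.9 CPM in untreated mice (adjusted p = 0.736 in edgeR). Inpp5d (SHIP1), the lipid phosphatase that restrains DAP12 signalling, was at 106 ± 5.76 CPM on day 21, against 79.4 ± 20.3 CPM in untreated mice. Ptpn6 (SHP-1), a tyrosine phosphatase, was at 11.6 ± 1.32 CPM on day 21, against 22.7 ± 4.33 CPM in untreated mice. Cd33, a sialic acid receptor, had 325 and 564 counts on day 21 against 30 and 472 in untreated mice, and Sirpa, which binds CD47, had a log2 change of 0 to 2 decimals with an SE of 0.59. Cd33 passed only without untreated replicate 2 among the 14 other settings (log2 change 4.34, edgeR adjusted p = 0.000709), against 1.5 ± 0.78 with all libraries.

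Around Rasa4, 4 of 22 Ras proteins and regulators were tested, with a median log2 change of -0.16. None passed by adjusted p in edgeR's quasi-likelihood test or in DESeq2, and none was under an unadjusted p of 0.05 in edgeR. Rasa3, a related Ras-inactivating protein, was at 41.2 ± 0.166 CPM on day 21, against 29.2 ± 17.6 CPM in untreated mice. Nras itself was at 107 ± 23.6 CPM on day 21, against 162 ± 113 CPM in untreated mice. Rasa1, another of the family, had 8 and 0 counts on day 21 against 24 and 5 in untreated mice and was below the filter.

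Apoe, the apolipoprotein that TREM2 binds, rose to 2224 ± 695 CPM on day 21, against 53.5 ± 35.4 CPM in untreated mice, and was the 1 of 3 tested genes among TREM2 ligands and sheddases that passed (log2 change 5.37 ± 0.70, edgeR adjusted p = 3.95e-05). Lgals3 (galectin-3) was at 362 ± 67.8 CPM on day 21, against 408 ± 249 CPM in untreated mice. Adam10, a protease that sheds TREM2, was at 4.06 ± 0.709 CPM on day 21, against 6.30 ± 0.811 CPM in untreated mice, and neither passed. Another list held genes that mark lipid-associated macrophages or disease-associated microglia, states whose full form needs Trem2 in mice. Of its 26 genes 22 were tested, 2 rose (Apoe and Cd63), none fell and 20 did not pass. Of all tested genes 0.668% passed as higher and 0.0668% as lower. Apoe is the same gene that passed among the ligands and among the monocyte-derived macrophage markers. The median log2 change of the 22 was 0.70, with 15 positive and 7 negative, against -0.07 for all tested genes. At an unadjusted p under 0.05 in edgeR, 8 were higher and 1 lower. Of all 2993 tested genes at least 106 were higher and 64 lower, and such lower bounds give no exact share to compare. The list was chosen with earlier results known, so nothing is read from these counts. In DESeq2 3 passed by adjusted p, against 21 higher and 4 lower of all tested genes. The third was Gpnmb, a lysosomal glycoprotein, with 144 and 589 counts on day 21 against 11 and 107 in untreated mice (log2 change 3.34 ± 0.85, adjusted p = 0.0694 in edgeR and 0.0201 in DESeq2). The one lower was Clec7a, the receptor dectin-1, with 9 and 13 counts on day 21 against 54 and 121 in untreated mice (log2 change -2.40 ± 0.77, edgeR adjusted p = 0.255). Cd63, a tetraspanin of late endosomes, was at 508 ± 141 CPM on day 21, against 9.94 ± 1.56 CPM in untreated mice (log2 change 5.66 ± 0.73, edgeR adjusted p = 3.95e-05). Ctsb and Ctsd, lysosomal proteases, differed by 1.55 ± 0.52 and 0.83 ± 0.37 on the log2 scale, which did not pass (edgeR adjusted p = 0.350 and 0.763). Leaving out untreated replicate 1, so that 1 untreated library remained, gave 4.83 for Apoe and 5.52 for Cd63 on the log2 scale.

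**Figure D4:**
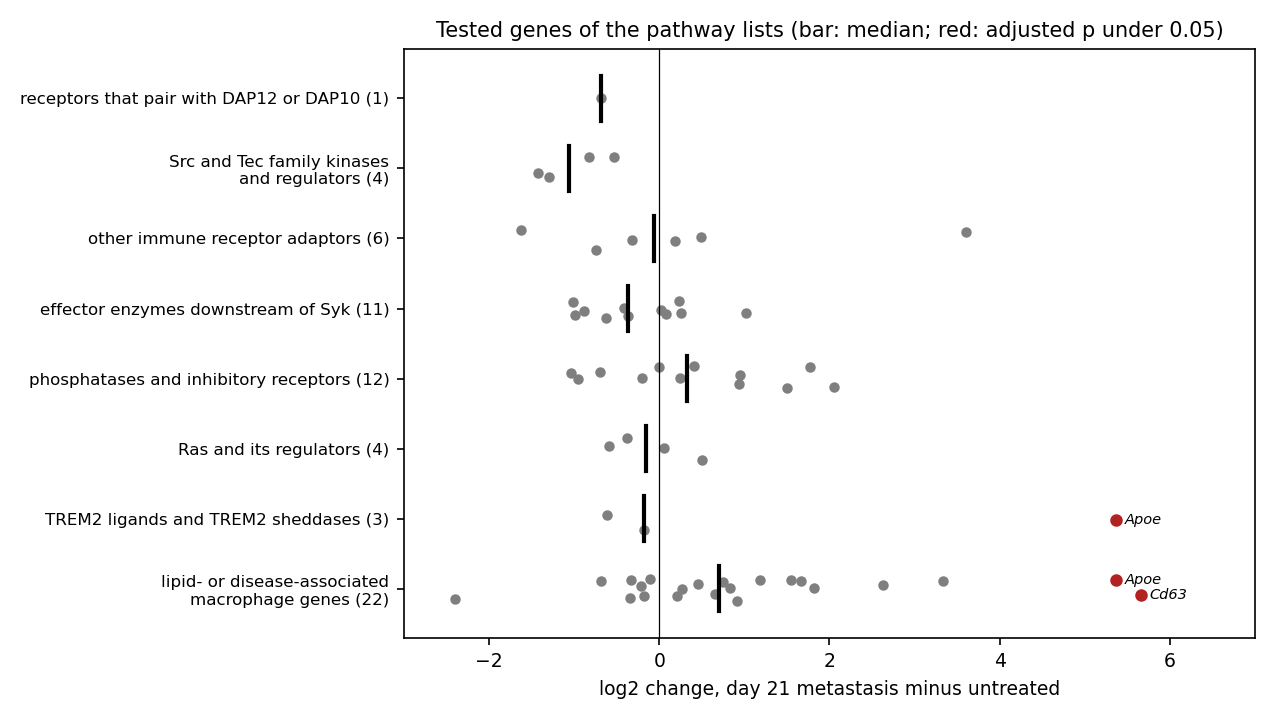
Log2 change, day 21 metastasis minus untreated, of the tested genes of each pathway list (number tested in brackets; point, gene; black bar, median of the list; red, edgeR adjusted p under 0.05). All 4 tested kinases and regulators lie below 0, as does the median of all tested genes (-0.07), and none of the 4 passed. The 2 red genes, Cd63 and Apoe (which is in 2 lists), lie above 5.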

How the data were processed

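Each deposited file lists, per the file headers, tags of 21 bases with a symbol, a RefSeq accession and a raw count. Per the submitters' processing notes the build was mm9; how tags were matched and filtered is not stated in the labels. Genes were named through the RefSeq accession (29335 tags), the symbol (439), an older symbol (115) or the deposited symbol (738), and tags were summed per gene. Tags after CATG were searched in GENCODE M21 transcripts, and coordinates come from that match on GRCm38. All 4 libraries entered the quasi-likelihood test of edgeR 4.0.16 in R 4.3.3, with TMM factors (0.988 and 0.864 for day 21 metastasis, 1.05 and 1.12 for untreated), a filter on low counts (filterByExpr, at least 10 counts and 15 in total) and p-values adjusted by Benjamini-Hochberg over 2993 genes. The SE was taken from the log2 change and its F statistic (change over root F). Shares carry exact Clopper-Pearson 95% intervals, which like the bounds at 0 cover counting error only.

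The 6 genes, the 9 pathway lists and the 10 marker lists were chosen with earlier results of these data known. Named from each list were the genes that passed, the 2 of smallest p and the 2 of highest mean CPM, plus a fixed set of pathway genes, and the 5 genes nearest to Trem2 and to Tyrobp. Clec7a, Gpnmb and B2m were named outside that rule after their values were seen. Alternatives were other scalings, no filter, DESeq2 1.42.0, a replicate block, deposited symbols, 1 tag per gene, tags at 0 set at 1, tags of 1 gene (added after seeing the data) and each library left out. The values of 1 gene of the fixed set are not reported here.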

Additional observations from a re-analysis of the deposited data

How the results depend on the processing

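No log2 change of the 6 genes changed sign under the 10 processing alternatives or the 4 fits that leave out a library. Over the 10 alternatives it ran from 3.14 to 3.91 for Trem2, 0.35 to 0.67 for Tyrobp, 0.57 to 0.86 for Hcst, 4.83 to 5.31 for Lat2 and -0.82 to -0.57 for Syk. For Rasa4 (4.64) it was 3.87 with the most counted tag only and 2.42 with tags at 0 set at 1. With 1 library left out it ran from 2.13 to 4.19 for Trem2, 0.13 to 1.10 for Tyrobp, 0.46 to 1.32 for Hcst, 4.24 to 10.11 for Lat2, -0.94 to -0.18 for Syk and 3.83 to 7.46 for Rasa4. The upper ends of Lat2 and Rasa4 have no untreated count and are no bounds.

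Of all tested genes, 20 passed as higher and 2 as lower. The counts were 9 and 0 with total counts alone, 36 and 5 with no filter, 31 and 9 with the replicate block, 9 and 0 with the most counted tag only and 11 and 0 with tags of 1 gene only, where fewer genes were tested. They were 20 and 0 with upper-quartile factors, 21 and 4 with DESeq2 and 29 and 6 with tags at 0 set at 1. With 1 library left out they ran from 0 to 63 higher and from 0 to 18 lower. In the pathway lists 2 genes were higher and 0 lower, against 4 higher with no filter and 4 with tags at 0 set at 1 (Apoe, Cd63, Gpnmb and Pstpip1 in both), and 0 to 6 higher with 1 library left out. The extremes were without untreated replicate 1 (0) and without untreated replicate 2, where Apoe, B2m, Cd33, Cd63, Gpnmb and Pstpip1 passed (Pstpip1 against a single untreated library at 0). With the replicate block 1 was lower (Clec7a). The cause was not tested.

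Libraries with the same number deviated together (r = 0.54 across genes, which are not independent), but nothing in the labels pairs them. With the replicate block the log2 changes were 3.29 for Trem2, 0.61 for Tyrobp, 0.85 for Hcst, 5.31 for Lat2, -0.59 for Syk and 4.72 for Rasa4. Depth limits Hcst and most receptors and adaptors, which had few counts or were below the filter.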
